A study of Mus musculus with 19 samples.

Results

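A set of 10 genes of the fibroblast matrix was followed through sorted cells of the mouse anterior prostate: the small leucine-rich proteoglycans decorin (Dcn), biglycan (Bgn), asporin (Aspn), lumican (Lum), fibromodulin (Fmod), prolargin (Prelp) and osteoglycin (Ogn), and dermatopontin (Dpt), tetranectin (Clec3b) and the microfibril-associated protein Mfap5. They were taken by gene symbol, 10 of 24343 symbols in the deposited tables, with no threshold on a measured value. They are a selection: 11 other small leucine-rich repeat proteins of the matrix are described after them. Each gene's level is the sum of the FPKM of its transcripts, which adjusts fragment numbers for transcript length and library size, so that levels can be set side by side between genes.

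Small leucine-rich proteoglycans are secreted proteins whose curved repeat domain binds collagen and sets how fibrils grow and pack. Class I members (decorin, biglycan) carry chondroitin or dermatan sulfate chains, asporin is the class I member that lacks them, class II members (lumican, fibromodulin, prolargin) can carry keratan sulfate or, in prolargin, a basic amino-terminal stretch that binds heparin, and osteoglycin belongs to class III. Dermatopontin binds decorin and collagen, tetranectin is a secreted C-type lectin that binds plasminogen, and Mfap5 decorates the fibrillin microfibrils on which elastic fibres form. In most organs fibroblasts are the main source of these proteins.

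RNA was measured in basal, luminal and stromal cells isolated by flow sorting. The Lgr5-DTR group came from Lgr5-DTR-eGFP mice, in which a diphtheria toxin receptor sits at Lgr5, after treatment with the toxin, and gave 4 stromal, 3 basal and 3 luminal libraries. The wild type control group gave 3 libraries of each population. The study asked what changes in each population when Lgr5-expressing stromal cells are ablated. The labels name C57BL/6 mice bought from a breeder and Lgr5-DTR-eGFP mice from another laboratory. They give neither age nor toxin dose, and they do not say whether wild type mice received the toxin. Allele, toxin and origin of the mice therefore cannot be told apart. The labels also do not say which libraries came from separate mice, so the p-values measure the spread between libraries, which may be partly technical.

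The 19 libraries held 5.26 to 9.38 gigabases on annotated transcripts, and 9209 to 10819 genes reached 1 FPKM in each. Lgr5, the targeted gene, was at 29.05, 25.78 and 77.65 FPKM in the wild type stromal libraries and at 0.97, 0.87, 1.32 and 0.50 FPKM in the Lgr5-DTR stromal libraries (two-sided p = 0.0286 by an exact permutation test, for which 3 against 4 libraries allow no smaller value). The receptor was placed at Lgr5 itself, so this value does not measure how many cells were lost. The sorts matched their names: summed basal keratin and related markers were at 7270 to 13000 FPKM in basal libraries and at most 542 FPKM elsewhere, and 10 fibroblast markers summed to 4820 to 6240 FPKM in stromal libraries and at most 162 FPKM elsewhere. Luminal epithelial markers summed to 15100 to 27300 FPKM in luminal libraries, to at most 542 FPKM in stromal libraries, and to 4170 to 5060 FPKM in wild type and 5080 to 6710 FPKM in Lgr5-DTR basal libraries. In 7 libraries the deposited confidence limits and status entries were of a different kind from the other 12. These 7, called the processing set below, were Lgr5-DTR stromal replicate 3, wild type basal replicate 2, Lgr5-DTR basal replicates 1 and 3, wild type luminal replicates 1 and 3, and Lgr5-DTR luminal replicate 1.

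Several of the genes lie side by side in the genome (coordinates of the deposited tables, mm10). Dcn and Lum lie with Kera and Epyc on chromosome 10 (97479500 to 97681900, 202 kb), Ogn and Aspn with Ecm2 and Omd on chromosome 13 (49504810 to 49624500, 120 kb), and Prelp and Fmod with Optc on chromosome 1 (133897194 to 134048277, 151 kb). Ogn and Aspn lie within the span of Cenpp on the opposite strand and Bgn overlaps Mir3473a. Whether strand was used in counting is not given in the sources used here, so some reads of these genes could belong to the overlapping gene. Cenpp itself was at 0.735 ± 0.483 FPKM (SD, n = 3) in the wild type stroma, far below Ogn and Aspn there. In wild type luminal cells its mean of 2.18 FPKM was above Ogn (0.132 FPKM) and Aspn (0.473 FPKM). Basal means of Cenpp were 0.549 FPKM in wild type and 0.133 FPKM in Lgr5-DTR, beside 1.57 and 0.147 FPKM for Ogn.

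RefSeq start sites and upstream sequence (build GRCm38.p6) were at hand for 6 of the 10 genes. The 250 bases before the start are shown for 4 of them, chosen because the results below turn on these genes: Dpt fell most in stroma, Fmod was highest in basal cells, Prelp is its neighbour and also present in basal cells, and Ogn was near 0 in Lgr5-DTR basal cells. Each runs 5′ to 3′ on the gene's own strand, with capitals for the letters of the motifs searched on both strands.
Dpt: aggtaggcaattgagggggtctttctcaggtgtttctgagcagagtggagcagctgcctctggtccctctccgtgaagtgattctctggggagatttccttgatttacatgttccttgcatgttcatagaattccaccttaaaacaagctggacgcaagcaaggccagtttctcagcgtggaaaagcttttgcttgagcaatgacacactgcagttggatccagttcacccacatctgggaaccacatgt
Fmod: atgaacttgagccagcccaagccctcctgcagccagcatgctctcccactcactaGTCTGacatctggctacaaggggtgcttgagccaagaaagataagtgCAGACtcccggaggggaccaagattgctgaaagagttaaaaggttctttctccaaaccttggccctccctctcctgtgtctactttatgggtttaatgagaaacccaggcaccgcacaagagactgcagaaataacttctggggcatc
Prelp: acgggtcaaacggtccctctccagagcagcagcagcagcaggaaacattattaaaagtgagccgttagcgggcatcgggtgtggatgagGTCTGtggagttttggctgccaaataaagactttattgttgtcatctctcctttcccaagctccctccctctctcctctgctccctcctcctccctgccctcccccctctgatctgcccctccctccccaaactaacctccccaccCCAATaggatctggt
Ogn: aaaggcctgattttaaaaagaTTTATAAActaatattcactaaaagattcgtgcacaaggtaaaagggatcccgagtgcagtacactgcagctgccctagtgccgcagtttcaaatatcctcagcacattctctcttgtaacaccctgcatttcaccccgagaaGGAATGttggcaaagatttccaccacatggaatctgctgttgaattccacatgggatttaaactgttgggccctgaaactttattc
The Dpt window (chromosome 1, 164796413 to 164796662, plus strand) held none of the 6 motifs searched. The Fmod window (chromosome 1, 134037004 to 134037253, plus strand) held CAGAC, the short SMAD motif, on each strand. Its RefSeq start lies 261 bases before the start in the deposited table. The Prelp window (chromosome 1, 133921402 to 133921651, minus strand) held 1 CAGAC match and a CCAAT box ending 11 bases before the start. The Ogn window (chromosome 13, 49607765 to 49608014, plus strand) held TATAAA on both strands at overlapping positions 222 to 229 bases before the start, away from the usual place of a TATA box, and GGAATG, the TEAD motif. CAGAC is common, in 42.2% of 32851 promoter windows of the same length, against 33.8% for CCAAT, 12.4% for TATAAA, 12.6% for GGAATG, 32.7% for the GC box GGGCGG and 6.75% for the AP-1 motif TGANTCA, which none of the 6 available windows held. These matches describe letters only. The GC content was 48.8% for Dpt, 51.2% for Fmod, 55.6% for Prelp and 42.0% for Ogn, against a mean of 53.2% over all windows.

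Decorin dominated the group in wild type stromal cells. Its level was 3920, 4025 and 3946 FPKM in the 3 libraries, which was 68.4% ± 0.705 (SD, n = 3) of the summed level of the 10 genes. Biglycan followed at 770.4, 762.3 and 747.8 FPKM, or 13.1% ± 0.206 of the sum. Both hardly varied between replicates. Dpt (277.6 ± 30.2 FPKM, SD, n = 3 as for the following), Clec3b (232.3 ± 27.5 FPKM), Mfap5 (167.4 ± 30.4 FPKM), Lum (152.1 ± 29.4 FPKM) and Prelp (128.3 ± 22.5 FPKM) formed a middle tier, and Ogn (63.1 ± 9.54 FPKM), Fmod (33.1 ± 7.09 FPKM) and Aspn (17 ± 1.96 FPKM) were the lowest of the 10. Of the cluster neighbours, Ecm2 (8.62 ± 0.377 FPKM), Epyc (6.30 ± 0.348 FPKM) and Omd (3.90 ± 0.717 FPKM) were lower still, and Optc (0.259 ± 0.204 FPKM) and Kera (0.293 ± 0.0622 FPKM) were below 1 FPKM.

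**Figure D1:**
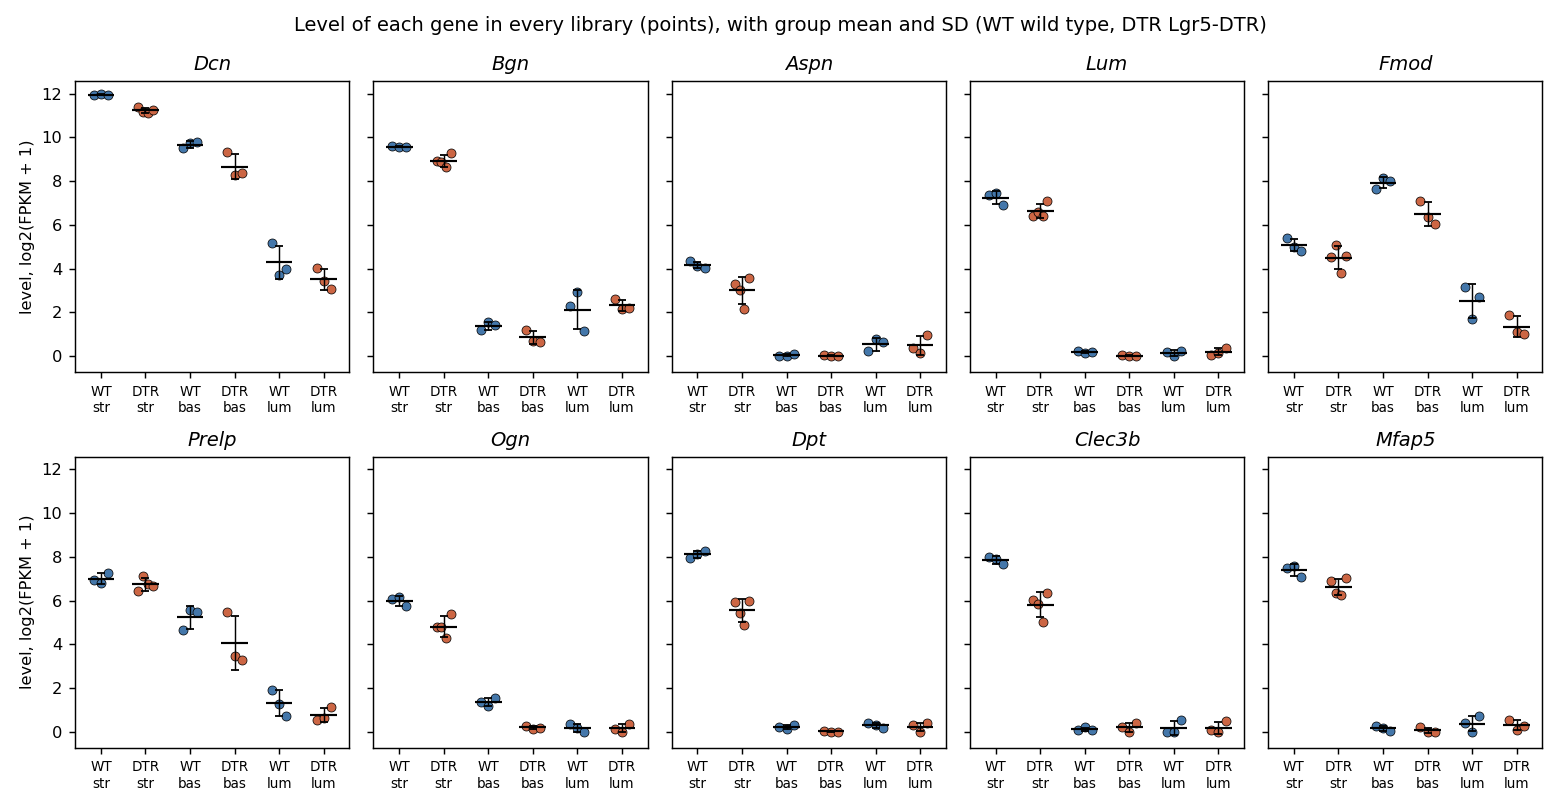
Level of each of the 10 genes as log2(FPKM + 1), by sorted population and genotype (WT wild type, DTR Lgr5-DTR, str stromal, bas basal, lum luminal). Points are libraries, bars the group mean and SD. Dcn and Prelp step down from stroma to basal to luminal cells, Fmod peaks in basal cells, and Lum, Dpt, Clec3b and Mfap5 are near 0 outside the stroma.

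The 10 genes did not share one pattern over the populations. Lum, Dpt, Clec3b, Mfap5 and Aspn stood at no more than 0.219 FPKM in any wild type basal library and 0.693 FPKM in any wild type luminal library. They entered the comparisons of populations only through the stromal libraries, where they are high, so their levels are given as a description. The other 5 genes reached 1 FPKM in all wild type basal libraries. Of these, Dcn, Bgn, Prelp and Ogn were called higher in stromal than in basal cells (limma on log2(FPKM + 1), Benjamini-Hochberg adjusted p under 0.05 over all genes), where 30.1% of 10765 genes tested were called higher. Fmod was called lower in stroma, as were 28.9% of genes. Dcn, Bgn and Fmod, at 1 FPKM or more in all wild type luminal libraries, were called higher in stromal than in luminal cells, against 27.8% of 11178 genes. In Lgr5-DTR mice Dcn, Prelp and Fmod reached 1 FPKM in all basal libraries, and Dcn and Prelp were called higher and Fmod lower in stroma (26.9% and 31.6% of 10893 genes). Dcn, Bgn and Fmod were again called higher in stromal than in luminal cells (20.8% of 11399 genes).

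Fibromodulin, which binds collagen and lysyl oxidase and steers fibril thickness, was the exception. It stood at 198.9, 277.9 and 258.8 FPKM in wild type basal cells against 41.04, 31.04 and 27.33 FPKM in wild type stromal cells. Every basal library lay above every stromal one, as for 32.9% of genes tested, and the mean was 7.40 times the stromal mean (log2 difference of stromal minus basal -2.86, SE 0.207, limma adjusted p = 2.93e-06). In Lgr5-DTR mice the basal mean was 4.15 times the stromal mean (log2 difference -2.0, SE 0.329, adjusted p = 0.000336). In wild type luminal cells Fmod was at 7.98, 2.21 and 5.51 FPKM, 15.8% of the stromal mean.

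Decorin and prolargin were lower in basal than in stromal cells but plainly present there. Wild type basal libraries held Dcn at 729.6, 844.3 and 879.8 FPKM, or 20.6% of the stromal mean, and Prelp at 23.93, 45.96 and 44.05 FPKM, or 29.6%. Dcn, Fmod and Prelp made up 74.2% ± 2.14, 22.1% ± 1.48 and 3.38% ± 0.765 (SD, n = 3) of the summed level of the 10 genes in wild type basal cells. Ogn was at 1.56, 1.27 and 1.90 FPKM, 2.49% of stroma. The other 6 genes were at 0.0338% to 0.219% of stroma, with Bgn, second in abundance in stroma, at 1.63 ± 0.322 FPKM. The 10 fibroblast markers stood at 0.0558% to 0.625% of their stromal level in the same basal cells (median 0.263%), with Pdgfra at 0.466%, Col1a1 at 0.152% and Thy1 at 0.0558%. The percentages for Dcn, Prelp, Fmod and Ogn thus lay above those of all 10 fibroblast markers, and those of the other 6 genes lay within or below the range of the markers.

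**Figure D2:**
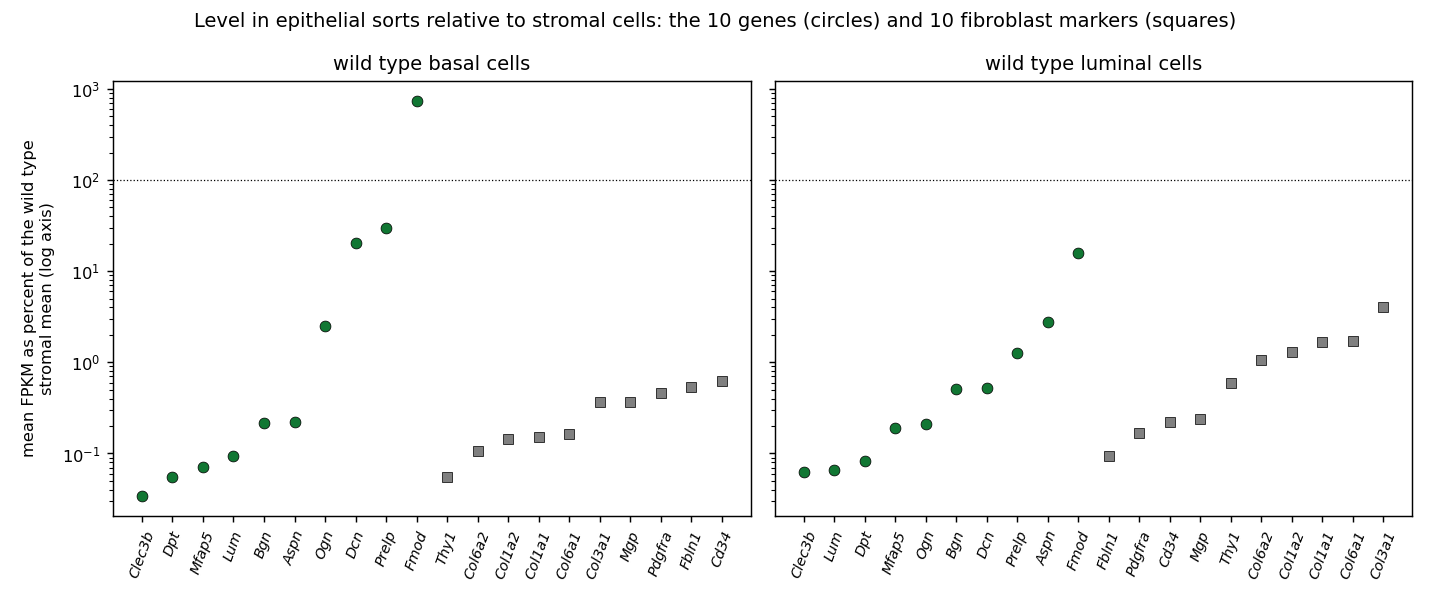
Mean FPKM in wild type basal (left) and luminal cells (right) as a percentage of the wild type stromal mean, on a log axis, for the 10 genes (circles) and 10 fibroblast markers (squares). The dotted line is 100%. Fmod (740%), Prelp (29.6%), Dcn (20.6%) and Ogn (2.49%) stand above every marker in basal cells, and Fmod (15.8%) stands above every marker in luminal cells.

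Neighbours on a chromosome differed in this respect. Dcn was at 817.9 ± 78.5 FPKM in wild type basal cells, while Lum, the next gene of its cluster, was at 0.141 ± 0.0454 FPKM and Kera was listed at 0. On chromosome 1, Fmod and Prelp were both present in basal cells and Optc, beside them, reached at most 0.83 FPKM. On chromosome 13, Ogn was at 1.57 ± 0.315 FPKM and Aspn at 0.0373 ± 0.0367 FPKM in wild type basal cells.

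Luminal cells held little of any of the genes. Dcn was at 34.56, 11.91 and 15 FPKM in wild type luminal libraries, Fmod at 5.23 ± 2.89 FPKM and Bgn at 3.91 ± 2.69 FPKM (SD, n = 3), and the other 7 had means of at most 1.62 FPKM. Replicate 1 was the highest wild type luminal library for Dcn, Fmod and Prelp, and its summed basal epithelial markers were at 488.6 FPKM against 138.4 and 170.6 FPKM in replicates 2 and 3. The part of basal cells in these luminal values was not tested.

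Decorin has 2 annotated transcripts, which start apart on chromosome 10 (97479500 for NM_001190451 and 97482350 for NM_007833). The upstream form made up 68.6% ± 3.35 (SD, n = 3) of Dcn FPKM in wild type stromal cells and 80.6% ± 2.20 (SD, n = 3) in wild type basal cells. Over both genotypes the share ran from 64.7% to 71.7% in 7 stromal libraries and from 70.7% to 82.8% in 6 basal libraries, so that the ranges met at their ends. In Lgr5-DTR basal cells it was 72.7% ± 2.57 (SD, n = 3), below all wild type basal libraries, and in Lgr5-DTR stromal cells 69.6% ± 1.92 (SD, n = 4). By exact two-sided permutation tests the share differed between basal and stromal libraries by 7.47 percentage points (p = 0.00175, adjusted over 3 comparisons of the share p = 0.00525). This test pooled the genotypes and took all libraries as independent. Some basal and stromal libraries of a genotype share a number in their titles, and pairing by it was not tested. The basal and stromal ranges were separate in wild type (78.4% to 82.8% and 64.7% to 70.6%) and overlapped in Lgr5-DTR libraries (70.7% to 75.6% and 67.7% to 71.7%). A difference within each genotype was not tested. Between the genotypes p was 0.1 in basal cells, the smallest that 3 against 3 libraries allow in an exact test, and 0.657 in stromal cells. Cufflinks divides shared reads between the forms by estimation.

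In stromal cells all 10 genes had lower mean levels in Lgr5-DTR than in wild type libraries, and 3 of them were called lower: Dpt, Clec3b and Dcn. Of 10689 genes tested, 1.1% were called lower and 0.0655% higher. The 10 log2 differences had a median of -0.733, against -0.086 over all genes tested (TMM scaling moved this median by 0.094 and quantile normalization by 0.118, and all 10 differences stayed below 0). By limma 8 of the 10 had an unadjusted p under 0.05, as had 1230 of the 10689 genes tested. In 7 of the 10, all but Lum, Fmod and Prelp, every Lgr5-DTR library lay below every wild type library, as for 9.39% of genes tested. In sorted bulk cells, fewer cells that express a gene and less of its RNA per cell cannot be told apart.

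Dermatopontin showed the greatest difference of the 10. It was at 246.8, 278.8 and 307.2 FPKM in wild type stroma and at 60.77, 42.08, 28.14 and 62.60 FPKM in Lgr5-DTR stroma. The highest Lgr5-DTR library was under the lowest wild type library by a wide margin, and the mean was 17.4% of wild type (log2 difference -2.56, SE 0.272, limma adjusted p = 0.00144). Tetranectin was at 254.3, 241.2 and 201.4 FPKM against 65.16, 56.53, 31.35 and 80.59 FPKM. Its groups were also far apart, at 25.1% of the wild type mean (-2.04, SE 0.286, limma adjusted p = 0.00617). Without the filter on low values the adjusted p of Clec3b was 0.0547, and that of Dpt 0.0226.

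Decorin was at 2708, 2316, 2230 and 2412 FPKM in Lgr5-DTR stroma, against the 3920 to 4025 FPKM of wild type. Its groups were separate, at 61.0% of the wild type mean (-0.72, SE 0.142, limma adjusted p = 0.0388). The call was close to the threshold: only 5 of 18 alternative settings kept it, with adjusted p from 0.0197 to 0.217, while its log2 difference stayed between -0.77 and -0.59. It was lost when any wild type library was left out, or Lgr5-DTR replicate 2 or 3, and with TMM scaling (adjusted p = 0.114). Biglycan, its closest relative, was at 481.8, 466.3, 403.5 and 630.1 FPKM in Lgr5-DTR stroma, below all wild type libraries at 65.2% of their mean, and was not called (-0.64, SE 0.183, adjusted p = 0.161 by limma). Asporin was at 19.20, 16.48 and 15.39 FPKM in wild type and 8.77, 7.13, 3.44 and 10.86 FPKM in Lgr5-DTR stroma, separate groups at 44.4% of the wild type mean, also not called (-1.16, SE 0.313, limma adjusted p = 0.134).

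None of the class II genes was called, and the genotypes overlapped for all 3. Lum was at 164.7, 173.1 and 118.5 FPKM in wild type and at 83.85, 95.85, 82.66 and 135.7 FPKM in Lgr5-DTR stroma, with 1 Lgr5-DTR library above the lowest wild type one. Fmod was at 21.87, 33.11, 13.02 and 22.77 FPKM in Lgr5-DTR stroma, overlapping wild type, and Prelp at 85.15, 136.6, 106.3 and 100.8 FPKM against 120.2, 111.1 and 153.8 FPKM. Their limma adjusted p-values were 0.314, 0.5 and 0.746. With an SE of 0.214 on a log2 difference of -0.26 for Prelp, these data neither show a change nor that there was none. Osteoglycin was at 66.90, 70.19 and 52.27 FPKM in wild type and 26.43, 26.77, 18.34 and 41.37 FPKM in Lgr5-DTR stroma, separate groups at 44.7% of the wild type mean (-1.18, SE 0.265, limma adjusted p = 0.0666). Mfap5 was at 176.3, 192.3 and 133.5 FPKM against 117.2, 79.92, 76.49 and 128.9 FPKM, separate groups by a small gap (-0.75, SE 0.239, limma adjusted p = 0.216).

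**Figure D3:**
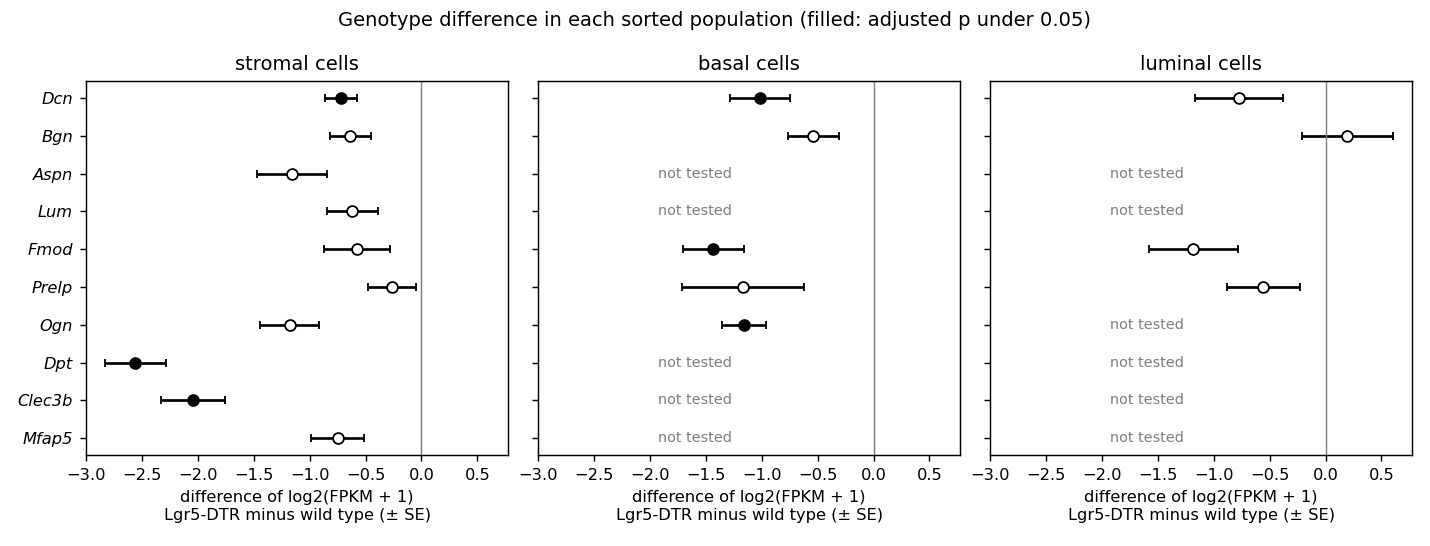
Difference of mean log2(FPKM + 1), Lgr5-DTR minus wild type, with its SE, in stromal, basal and luminal cells. Filled points have a limma adjusted p under 0.05, and genes under the filter on low values are marked as not tested. Ogn in basal cells entered the test only through the wild type libraries. Dpt (-2.56) and Clec3b (-2.04) lie apart from the other 8 genes in stroma, and Fmod (-1.43) is the lowest in basal cells.

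Replicate 3 of the Lgr5-DTR stromal libraries, the only stromal library of the processing set, was the lowest of its group for all of the 10 genes but Prelp. Without it the log2 difference was -2.33 for Dpt (limma adjusted p = 0.00537), -1.78 for Clec3b (adjusted p = 0.0099) and -0.68 for Dcn (adjusted p = 0.154), so that 2 genes were called. Replicate 4, the shallowest library at 5.26 gigabases, was the highest of its group for 7 of the 10. Without it 6 genes were called, with Ogn (adjusted p = 0.00879), Bgn (adjusted p = 0.0461) and Aspn added to the 3. Summed fibroblast markers overlapped between the genotypes (5310 to 6070 FPKM in wild type, 4820 to 6240 FPKM in Lgr5-DTR). Most of each sum was Mgp, with means of 3787 FPKM in wild type and 4167 FPKM in Lgr5-DTR stroma. Taken singly, 8 of the 10 markers had a log2 difference below 0 (median -0.55). Of the 10, 2 were called lower and none higher, against 1.1% and 0.0655% of all genes tested. Summed smooth muscle markers, 8 genes, were at 243 to 258 FPKM in wild type and 297 to 390 FPKM in Lgr5-DTR stroma. Basal epithelial markers summed to 21.9 to 54.4 FPKM and 19.8 to 57.6 FPKM. Summed macrophage markers were at 5.54 to 10.9 FPKM in wild type and 13.8 to 21.7 FPKM in Lgr5-DTR stroma. The part of a shift in cell makeup in the lower levels of the 10 genes was not tested.

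Set against decorin in the same library, 7 of the other 9 genes had proportions that overlapped between the genotypes. Bgn was at 19.2% of Dcn in wild type and 20.5% in Lgr5-DTR stroma, Mfap5 at 4.22% and 4.14%, Lum at 3.83% and 4.14%, and Fmod at 0.837% and 0.941%. Dpt was at 7.0% (6.30% to 7.78%) in wild type and 1.98% (1.26% to 2.59%) in Lgr5-DTR stroma, and Clec3b at 5.86% (5.10% to 6.49%) and 2.40% (1.41% to 3.34%). For these 2 genes alone of the 9 the ranges of the genotypes were separate. By level, Dpt and Clec3b held places 3 and 4 of the 10 in wild type stroma and places 7 and 6 in Lgr5-DTR stroma. In exact two-sided permutation tests of the log2 proportions, Dpt and Clec3b each had p = 0.0286, the smallest that 3 against 4 libraries allow, and the other 7 genes had p from 0.114 to 0.857. None of the 9 stayed under 0.05 after adjustment for 9 proportions. With only 2 genes at the smallest possible p, their adjusted p of 0.129 in these exact tests could not have been lower. The adjustment therefore cannot decide whether these 2 proportions differ.

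**Figure D4:**
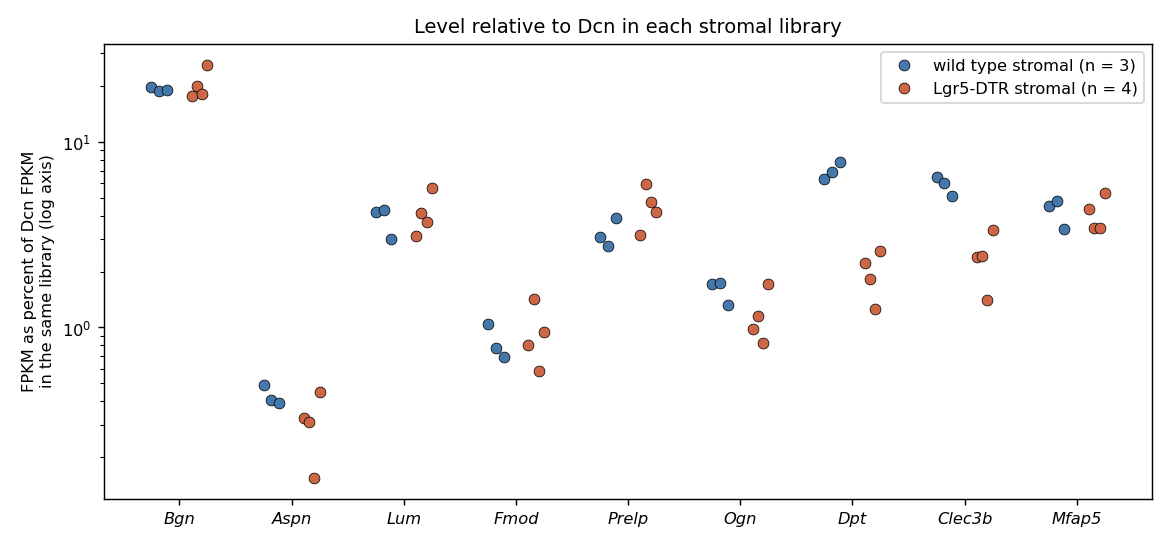
FPKM of 9 genes as a percentage of Dcn FPKM in the same stromal library, on a log axis. Each point is a library, wild type (n = 3) on the left and Lgr5-DTR (n = 4) on the right of each pair. The genotypes are separate for Dpt and Clec3b and overlap for the other 7 genes.

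The genes most like each of the 10 were sought over all 19 libraries. Likeness was measured as the root mean square difference of log2(FPKM + 1), each gene centred on its own mean, among genes with a mean of at least 5 FPKM in stroma. Clec3b was the gene nearest to Dpt, at 0.277, followed by Pi16, a fibroblast-expressed peptidase inhibitor, at 0.481. Mfap5 and Lum were each other's nearest gene, at 0.21. The nearest genes to Dcn were Pltp, a phospholipid transfer protein, at 0.612 and Prelp at 0.936, and those to Fmod were Scpep1 at 0.566 and Cp, ceruloplasmin, at 0.756. The closest of the 10 to Fmod was Prelp, at 2.04, in place 1191. Bgn was nearest to Pcolce, a procollagen processing enhancer, at 0.455, Ogn to Dpep1 at 0.404, Aspn to Col6a3 at 0.292 and Prelp to Dio3 at 0.699. These values describe libraries that share populations and genotypes.

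In basal cells Dcn and Fmod were called lower in Lgr5-DTR than in wild type libraries. They are 2 of the 3 genes, with Prelp, that reached 1 FPKM in every basal library. Bgn and Ogn passed the filter through the wild type libraries, Bgn with 1 and Ogn with 0 Lgr5-DTR libraries at 1 FPKM. Among 9755 genes tested 4.46% were called lower and 6.5% higher. Every Lgr5-DTR library lay below every wild type library for Dcn and Fmod, against 13.7% of genes tested.

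Fibromodulin was at 137.5, 80.49 and 64.29 FPKM in Lgr5-DTR basal cells, all under the lowest wild type basal library (198.9 FPKM), and at 38.4% of the wild type mean (-1.43, SE 0.274, limma adjusted p = 0.0141). Decorin was at 636.2, 313.0 and 330.0 FPKM, again all under wild type, at 52.1% of its mean (-1.01, SE 0.267, limma adjusted p = 0.0446). Osteoglycin was at 0.21, 0.10 and 0.13 FPKM, or 9.36% of the wild type mean of 1.57 FPKM. These low values are a description, since the wild type libraries alone brought the gene into the test. Prelp was at 43.26, 9.91 and 8.69 FPKM, with replicate 1 at the wild type level and the other libraries below it, and was not called (-1.17, SE 0.546, limma adjusted p = 0.209). Bgn was at 0.830 ± 0.415 FPKM against 1.63 ± 0.322 FPKM (SD, n = 3 each; limma adjusted p = 0.16).

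Replicate 1 was the highest Lgr5-DTR basal library for Dcn, Fmod, Prelp, Bgn and Ogn. Its summed basal epithelial markers were the lowest of the group (7269 FPKM against 8435 and 8767 FPKM) and its summed fibroblast markers the highest (15.43 FPKM against 12.02 and 8.64 FPKM). Without it Prelp was called lower as well, at -1.87 (limma adjusted p = 0.00104), beside Dcn and Fmod. Without wild type basal replicate 2 or 3, or Lgr5-DTR basal replicate 2, neither Dcn nor Fmod was called, and without wild type replicate 1 or Lgr5-DTR replicate 3 only Fmod was. Within the processing set, Fmod was at 277.9 FPKM in the wild type library and at 137.5 and 64.29 FPKM in the Lgr5-DTR libraries. Outside it, Fmod was at 198.9 and 258.8 FPKM in wild type and at 80.49 FPKM in the Lgr5-DTR library. Dcn was likewise lower in Lgr5-DTR within the set (844.3 FPKM against 636.2 and 330.0 FPKM) and outside it (729.6 and 879.8 FPKM against 313.0 FPKM). With the set as a covariate, Fmod was called by limma (adjusted p = 0.0285) and Dcn was not (adjusted p = 0.0579). Summed fibroblast markers were at 17.1 to 22.2 FPKM in wild type and 8.64 to 15.4 FPKM in Lgr5-DTR basal cells, and smooth muscle markers at 396 to 459 and 248 to 323 FPKM. Nearly all of the smooth muscle sum was Smtn, with means of 429.8 FPKM in wild type and 280.8 FPKM in Lgr5-DTR basal cells. Summed basal epithelial markers were at 10100 to 13000 FPKM in wild type and 7270 to 8770 FPKM in Lgr5-DTR basal cells, without overlap. Summed luminal epithelial markers were at 4170 to 5060 FPKM in wild type and 5080 to 6710 FPKM in Lgr5-DTR basal cells, also without overlap, and endothelial markers at 5.39 to 9.9 FPKM and 12.6 to 28.7 FPKM. Their part in the lower levels was not tested.

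In luminal cells 4 of the genes passed the filter and none was called in either direction by limma, with 1, Fmod, at an unadjusted p under 0.05. So were 2386 of the 10524 genes tested, and 1 of 4 is near that share. Of 10524 genes tested 2.62% were called higher (276) and 0.513% lower (54), a split that TMM scaling moved to 215 and 123 and quantile normalization to 144 and 73. Fmod was at 2.70, 1.13 and 1.04 FPKM in Lgr5-DTR luminal cells (-1.18, SE 0.395, limma adjusted p = 0.127) and Dcn at 15.30, 9.69 and 7.38 FPKM (-0.78, SE 0.392, adjusted p = 0.277). For none of the 4 genes did all Lgr5-DTR libraries lie below wild type, as they did for 9.63% of genes tested. Prelp was at 0.44, 0.53 and 1.19 FPKM (limma adjusted p = 0.338) and Bgn at 5.09, 3.37 and 3.65 FPKM (adjusted p = 0.801). The other 6 genes stayed at or below 0.93 FPKM in every luminal library.

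Several genes for fibrillar collagen were called higher in the same luminal libraries, where 2.62% of 10524 genes tested were called higher. Of 13 tested genes for fibrillar collagen and its processing, 7 were called higher and none lower (5 with TMM scaling and 4 with quantile normalization, which moved the luminal median of all genes by -0.146), among them Col1a1, a chain of type I collagen, from 4.40 to 32.2 FPKM (2.56, SE 0.308, limma adjusted p = 0.00681) and Col5a2 from 2.25 to 30.3 FPKM (3.13, SE 0.416, limma adjusted p = 0.00998). Col1a1 in Lgr5-DTR luminal cells was at 20.8% of its Lgr5-DTR stromal level and Col3a1 at 24.2%, while Dcn was at 0.447%, Lum at 0.155%, Dpt at 0.359% and Mgp, another fibroblast marker, at 0.166%. Fmod was at 7.15% and Aspn at 5.82%, the latter from 0.439 FPKM. The 10 fibroblast markers summed to 38.4 to 44.6 FPKM in wild type and 73.3 to 162 FPKM in Lgr5-DTR luminal cells. Of these, 6 were tested, and the 5 called higher were all collagens: Col1a1, Col1a2, Col3a1, Col6a1 and Col6a2. Mgp was at 9.02 FPKM in wild type and 6.93 FPKM in Lgr5-DTR luminal cells. Pdgfra, Thy1, Cd34 and Fbln1 had means of at most 0.404 FPKM in luminal cells of either genotype. Pericyte markers summed to 7.66 to 16.2 FPKM and 23.8 to 49.5 FPKM, and macrophage markers to 14.6 to 19.9 FPKM and 23.8 to 92 FPKM. Schwann cell markers summed to 41.7 to 63 FPKM in wild type and 72.1 to 157 FPKM in Lgr5-DTR luminal cells. Luminal epithelial markers summed to 24700 to 27300 FPKM and 15100 to 19300 FPKM, without overlap. The part of fibroblasts, pericytes, macrophages, Schwann cells or a lower luminal share in the collagen levels was not tested.

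Whether the genotype difference itself differed between populations was tested as an interaction. Between stromal and basal cells none of the 5 genes tested was called by limma, where 0.891% of 8980 genes were called higher and 2.09% lower. None of the 5 had an unadjusted p under 0.05, which 1301 of the 8980 genes had. Fmod had the smallest p of the 5, with a stromal minus basal difference of 0.86 (SE 0.43, adjusted p = 0.383). Prelp was at 0.90 (SE 0.603, adjusted p = 0.573), and at 1.60 (adjusted p = 0.0229) without Lgr5-DTR basal replicate 1. Between stromal and luminal cells none of 4 was called, against 0.0756% called higher and 2.43% lower of 9255 genes. None of the 4 had an unadjusted p under 0.05, which 1246 of the 9255 genes had. Bgn was at -0.83 (SE 0.448, adjusted p = 0.458).

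Of the 11 other small leucine-rich repeat proteins of the matrix, 6 were tested in stroma and none was called, against 1.1% of all genes called lower. Their median log2 difference was -0.896, against -0.086 over all genes. Podn, podocan, named after its values were seen, was the highest of them at 22.1 FPKM in wild type, above Aspn, and 10.9 FPKM in Lgr5-DTR stroma, without overlap (limma adjusted p = 0.071). Chad, chondroadherin, which passed the filter through the wild type libraries alone, had the smallest p, at 2.07 FPKM in wild type and 0.364 FPKM in Lgr5-DTR stroma (limma adjusted p = 0.0541). The cluster neighbours Epyc (2.90 FPKM in Lgr5-DTR, adjusted p = 0.173), Ecm2 (4.50 FPKM, adjusted p = 0.178) and Omd (2.36 FPKM, adjusted p = 0.398) had all Lgr5-DTR libraries below wild type and were not called by limma.

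Genes that build the sugar chains were not called in stroma, where 1.1% of all genes tested were called lower and 0.0655% higher. Of 19 tested genes for chondroitin and dermatan sulfate synthesis none was called, with a median log2 difference of -0.09 (0.029 after quantile normalization), and Chst14, the dermatan 4-O-sulfotransferase, had the smallest p (8.78 FPKM in wild type, 4.04 FPKM in Lgr5-DTR, limma adjusted p = 0.246). None of 4 keratan sulfate genes was called in stroma, where B4galt4 had the smallest p (limma adjusted p = 0.536). In basal cells B3galt6, which adds a linker galactose, rose from 3.96 to 7.86 FPKM (0.88, limma adjusted p = 0.0437) as the only call of 15, and B3gnt7, which extends keratan sulfate, fell from 6.23 to 3.42 FPKM (-0.71, limma adjusted p = 0.0448) as the only call of 4. Of all genes tested in basal cells 6.5% were called higher and 4.46% lower, so 1 call of 15 is near the share over all genes. In luminal cells none of 12 and none of 3 were called, against 2.62% of all genes called higher and 0.513% lower.

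The partners of the 10 genes in the matrix were partly lower in stroma, where 1.1% of all genes tested were called lower and 0.0655% higher. Of 23 tested genes for fibrillar collagen and its processing, 3 were called lower and all 23 had a log2 difference below 0 (median -0.458), 21 of them after TMM or quantile scaling, when 1 was still called: Pcolce2, a procollagen processing enhancer, fell from 16.7 to 3.23 FPKM (limma adjusted p = 0.00243), Col14a1, a fibril-associated collagen that binds decorin, from 7.13 to 2.15 FPKM (adjusted p = 0.0254) and Col3a1 from 373.5 to 156.1 FPKM (adjusted p = 0.0498). Of 17 elastic microfibril genes 4 were called lower and none higher, including Emilin2 (12.2 to 3.41 FPKM, limma adjusted p = 0.00552), Ltbp1 (7.54 to 1.02 FPKM, adjusted p = 0.00758) and Mfap4 (347.4 to 110.3 FPKM, adjusted p = 0.0089). Mfap5 itself was not called. Of 16 larger proteoglycans only Spock2, a testican, was called lower (7.13 to 2.59 FPKM, limma adjusted p = 0.0272), a call lost under TMM and quantile scaling, and of 14 proteases, growth factors and receptors that act on or bind small proteoglycans only Tgfb2 (19.5 to 6.88 FPKM, limma adjusted p = 0.0224).

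In basal cells the larger proteoglycans moved in both directions, where 4.46% of all genes tested were called lower and 6.5% higher. Of 14 tested, 6 were called lower and 2 higher: the glypican Gpc3 fell from 17.4 to 4.22 FPKM (limma adjusted p = 0.0027), Spock1 from 7.17 to 1.80 FPKM (adjusted p = 0.00839), and Gpc1 rose from 10.7 to 22.2 FPKM (adjusted p = 0.00671). Of 7 microfibril genes 3 were called lower, among them Efemp1 (19.2 to 9.47 FPKM, limma adjusted p = 0.00593) and Fbln2 (down to 2.02 FPKM, log2 difference -1.97, adjusted p = 0.0104), and Ltbp1 was called higher (1.35 to 7.98 FPKM, adjusted p = 0.00652), opposite to its difference in stroma. Of 9 collagen genes Plod2, a lysyl hydroxylase, and Col3a1 were called lower, the latter from 1.36 to 0.285 FPKM and tested through the wild type libraries only. Met, a receptor that decorin binds, rose from 24.5 to 41.9 FPKM (limma adjusted p = 0.0285) and the gelatinase Mmp2 fell from 4.86 to 2.02 FPKM (adjusted p = 0.0352), the only calls of 14. With 1 call of 14 in each direction, this list was near the shares over all genes. In luminal cells Cd44 (7.54 to 29.9 FPKM, limma adjusted p = 0.0164) and Gpc1 (5.75 to 50.1 FPKM, adjusted p = 0.0211) rose of 13 larger proteoglycans, and Bmp1, which cleaves procollagen and probiglycan (2.82 to 20.8 FPKM, adjusted p = 0.0207), and Tgfb1, which decorin binds (2.83 to 7.84 FPKM, adjusted p = 0.0416), rose of 13 proteases, growth factors and receptors. None of 9 microfibril genes was called in luminal cells, where 2.62% of all genes tested were called higher and 0.513% lower.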

How the data were processed

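RNA of flow-sorted cells was amplified with a low-input kit and made into libraries by tagmentation, per the labels' protocols. Each deposited table lists RefSeq transcripts with their FPKM, its confidence limits and a coverage signal, per the file headers. The authors used TopHat2, Cufflinks and mm10, per the submitters' processing notes, and versions are not given in the sources used here. FPKM were summed per gene symbol. Coverage times transcript length gave the depth and entered no test. All 228 entries of the 12 transcripts of the 10 genes had a valid status. FPKM carry no read counts, so no counting intervals are given and errors are the spread between libraries.

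Each comparison was fitted to its own groups with limma 3.58.1 in R 4.3.3 (trend, robust) on log2(FPKM + 1), over genes with at least 1 FPKM in 3 of the libraries fitted and no failed or capped status, with Benjamini-Hochberg adjustment over all genes tested and a threshold of 0.05. Interactions were fitted to 4 groups, over genes that pass in both populations. The limma tests were also tried on simulated data. TMM factors (trimmed mean of M values) were computed in R, and Python 3.11.15, pandas 2.3.3 and numpy 2.4.6 did the rest. No replicate pair shared values (0% of genes identical).

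The genes, gene lists and tests were chosen with earlier results of these data known. Named are the 10 genes, Lgr5, their cluster neighbours, from each list at most 3 called genes with the smallest p (or, with none called, 1), cell type markers, and for each of the 10 genes the 2 nearest genes. Single fibroblast markers given as a percentage of stroma, and Cenpp, were chosen after their values were seen. Promoter windows were read from RefSeq tables. Alternatives varied the pseudocount, filter, scaling, transcript choice, groups fitted, replicate block, processing set and libraries. A fit on the midpoint of the deposited confidence limits was added after seeing that FPKM and limits differed in 7 libraries.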

Additional observations from a re-analysis of the deposited data

How the results depend on the processing

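Dpt was called lower in stroma under all 18 alternatives and Clec3b under 17, while Dcn was called under 5 of 18. In basal cells Dcn was called under 8 of 17 and Fmod under 12 of 17. Ogn was called there under 12 of 13, but with the filter it enters the test only through all 3 wild type libraries, where it is higher. Its count is therefore a description and not a measure of how firm the call is. None of the stromal or basal differences of the 10 genes reversed. Depth is known only as coverage, so no limit by counting can be given. Genes of the 10 called lower in stroma (3) were 1 without a filter on low values and 2 to 6 when a library was left out. In basal cells (3, Ogn included) they were 1 without a filter, which was Ogn, and 0 to 5 when a library was left out. In the comparisons of wild type stroma with basal and with luminal cells, those called higher (9 and 10) were 4 to 9 and 4 to 10 with a library left out, since 2 remaining stromal libraries cannot pass a filter of 3. Without a filter 2 of the genes were called lower in each interaction, against 0. These were Dpt and Clec3b, which on this scale cannot fall below their level near 0 in epithelial cells. Leaving out a library gave 0 to 1 called higher in the interaction of stroma and basal cells.

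All genes called in stroma (7 higher, 118 lower) were 1 and 35 without a filter, 3 and 72 with a filter of 5 FPKM, 62 and 304 in a fit over all 19 libraries, 3 and 46 with the processing set as covariate, and 1 to 43 and 30 to 189 with a library left out. A pseudocount of 5 gave 3 higher, and TMM and quantile scaling gave 74 and 69 lower. In basal cells (634 higher, 435 lower) they were 310 and 182 without a filter, 420 higher on the midpoint of the confidence limits, and 177 to 944 and 105 to 1287 with a library left out. In luminal cells (276 higher, 54 lower) they were 0 and 4 without a filter, 724 and 147 over all 19 libraries, 488 and 262 with the processing set, 0 to 611 and 0 to 265 with a library left out, 123 lower with TMM, 144 higher with quantile normalization and 14 lower on the midpoint. The cause was not tested where the number of genes or libraries does not give it.

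Directions reversed only among differences that were not called: Bgn in luminal cells was -0.02 with quantile normalization and, with a library left out, -0.297 (without wild type replicate 3) to 0.595. In the interaction with basal cells Bgn was 0.325 with a pseudocount of 0.1 and -0.22 to 0.08 with a library left out (0.08 without Lgr5-DTR basal replicate 1), and Ogn was 1.561 with a pseudocount of 0.1, 0.025 with TMM, 0.054 with quantile normalization and -0.216 to 0.161 with a library left out, above 0 without wild type stromal replicate 1 or 2, Lgr5-DTR stromal replicate 3 or Lgr5-DTR basal replicate 1. In the interaction with luminal cells Dcn was -0.097 with a pseudocount of 5, -0.194 for its main transcript, and -0.376 to 0.355 with a library left out, below 0 without wild type luminal replicate 1 (-0.376) or Lgr5-DTR luminal replicate 3 (-0.159), and Prelp was -0.053 with a pseudocount of 5.

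The sample numbers of the descriptions gave no sign of pairing: correlations of same-numbered libraries ran from -0.526 to 0.486. In no comparison was every pair over 0.1. Both extremes came from comparisons of the genotypes, which set different mice side by side. Between populations of a genotype the correlations ran from -0.22 to 0.262. The titles carry other numbers, some shared by populations of a genotype, and pairing by these was not tested. With the number of the descriptions as a replicate block, 8 of the 10 genes were called lower in stroma, 0 in basal and 1 in luminal cells. All genes called were then 314 higher and 727 lower, 151 and 62, and 617 and 138. In stroma no wild type library shares the number of Lgr5-DTR replicate 4, so the block also takes this library out of the comparison. Leaving it out without a block gave 6 of the 10 genes called lower.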
